A study of Mus musculus with 6 samples.

Results

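The Usher proteins and the ankle link complex of the hair bundle were examined through 7 genes, Myo7a, Ush1c, Ush1g, Whrn, Pdzd7, Adgrv1 and Clrn1, in RNA-seq of mouse cochlear explants. The genes were taken by symbol, Adgrv1 under its current name rather than the older name Gpr98, and all 7 were found among the 24421 symbols of the count table. All 7 also had enough counts to be tested, among 15988 genes tested. The explants came from wild-type (WT) mice at postnatal day 2. They were cultured for 12 h, those of the neomycin group were exposed to neomycin, an aminoglycoside that is toxic to hair cells (HCs), at 1 mM for 6 h, and the explants were kept in culture for a further 5 days with EdU at 10 μM. RNA was taken from 6 to 8 pooled cochleae per sample, with 3 samples in the control and 3 in the neomycin group. The treatment label separates the groups, although the culture text given with the control samples also mentions neomycin, and the controls were taken here as explants without it. The explants were cultured after removal of the stria vascularis anlage, the modiolus and the tectorial membrane, so they hold the sensory epithelium with its neighbouring tissue and not HCs alone. Nothing in the labels says that the pools came from separate litters or culture days, so the p-values measure the spread between these samples, which may be partly technical.

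Sound is detected by HCs through a bundle of actin-filled stereocilia. The proteins lost in Usher syndrome, an inherited combination of deafness and progressive blindness, hold this bundle together while it grows. Myosin VIIa, the motor encoded by Myo7a, works with harmonin (Ush1c) and SANS (Ush1g), scaffold proteins that anchor the tip links, which join neighbouring stereocilia near their tips and are built from cadherin 23 and protocadherin 15. The ankle links join the bases of the growing stereocilia. They contain the very large adhesion receptor ADGRV1, which is held inside the stereocilium by the PDZ scaffolds whirlin (Whrn) and PDZD7. Clarin-1 (Clrn1) is a small membrane protein of the bundle and of the HC synapse, lost in a type of Usher syndrome with progressive deafness. Myosin VIIa protein is also the usual label of HCs.

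Total counts were between 50471116 and 66068108 per sample. After scaling, 6 of the 7 genes were lower after neomycin and Ush1c was not. Clrn1 fell most, to 25.6% of its control mean, followed by Adgrv1 at 30.8%, Myo7a at 45.4% and Ush1g at 53.4%. Pdzd7 and Whrn were lower by less, at 67.2% and 70.8% of the control mean, and Ush1c stood at 113%. In the fit across all genes tested (edgeR quasi-likelihood test, Benjamini-Hochberg), 4 of the 7 genes were called, all 4 lower, at the cut-offs used in the study (adjusted p-value below 0.05, fold change above 1.5). The same rule called 6.60% of all genes tested lower and 8.84% in either direction. Without the fold change threshold 6 of the 7 were lower, where 16.1% of all genes tested were. The 3 neomycin values of these 6 genes all lay on the same side of the 3 control values, without overlap, as was so for 43.5% of all genes tested. With each sample left out in turn, 4 or 5 genes were lower without the fold change threshold. In such bulk samples, fewer HCs and less RNA of a gene in each HC cannot be told apart.

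**Figure D1:**
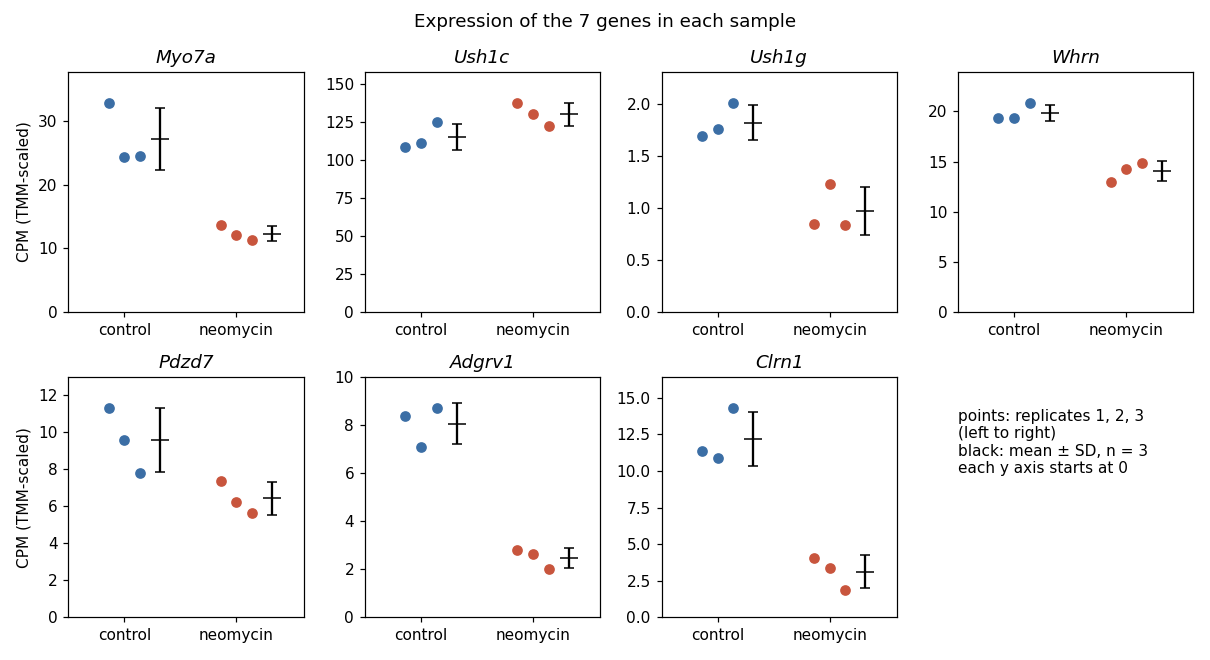
Scaled counts (CPM, TMM) of the 7 genes in each sample, 1 panel per gene, with every y axis starting at 0. Blue points are the 3 control samples, red points the 3 neomycin samples, and the black bars give the mean ± SD (n = 3). The groups overlap in the panel of Ush1c and in no other.

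Myo7a, on chromosome 7 of mm10 from 98051060 to 98119524 on the minus strand, is the motor of the complex. It had 2262, 1267 and 1374 counts in control replicates 1, 2 and 3 and 725, 711 and 607 counts in neomycin replicates 1, 2 and 3. Scaled with TMM to CPM (counts relative to library size), these were 32.8, 24.3 and 24.4 CPM in control and 13.7, 12.1 and 11.3 CPM after neomycin. Control replicate 1 stood above the other controls, and all 3 neomycin samples lay below every control. The means were 27.2 ± 4.86 and 12.3 ± 1.20 CPM (SD, n = 3). In log2 terms Myo7a changed by -1.14 (standard error, SE, 0.13, 95% interval -1.42 to -0.86, edgeR adjusted p = 7.94e-05). Without any 1 of the samples the log2 fold change lay between -1.22 and -0.98.

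Clrn1, on chromosome 3 from 58844028 to 58885340, had 11.4, 10.9 and 14.3 CPM in the control samples and 4.07, 3.39 and 1.88 CPM in the neomycin samples. Its highest neomycin value was well below its lowest control value, although the neomycin samples were themselves uneven. The replicate spread after neomycin was 36.0% of the mean, where counting error alone gives 7.62%. The log2 fold change was -1.97 (SE 0.23, 95% interval -2.46 to -1.48, edgeR adjusted p = 0.000103), a fold change of 3.91.

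Among the ankle link genes, the receptor and its scaffolds differed. Adgrv1, on chromosome 13 from 81095068 to 81633154, spans the longest stretch of the 7 genes and carries 24878 bases of merged exons. It had 8.40, 7.09 and 8.70 CPM in control and 2.79, 2.64 and 2.01 CPM after neomycin. Every neomycin sample was below every control, with a log2 fold change of -1.70 (SE 0.17, 95% interval -2.07 to -1.33, edgeR adjusted p = 3.63e-05). With a correction for exon length the log2 fold change of Adgrv1 was smaller, -1.41 (edgeR adjusted p = 0.000179). The same correction made those of Myo7a and Whrn smaller, at -0.99 and -0.38 (edgeR adjusted p = 5.23e-05 and 0.0152). It left Clrn1, Pdzd7 and Ush1g slightly lower, at -1.99, -0.59 and -0.96, and Ush1c at 0.15. Whrn, on chromosome 4 from 63414910 to 63495991, had 19.3, 19.4 and 20.8 CPM in control and 13.0, 14.3 and 14.9 CPM after neomycin. The groups were again apart, with the closest replicates of all 7 genes in control, where the SD was 4.23% of the mean. The log2 fold change of Whrn was -0.50 (SE 0.10, 95% interval -0.70 to -0.29, edgeR adjusted p = 0.00271), a fold change of 1.41 that lies under the threshold of 1.5. The 95% intervals of Adgrv1 and Whrn did not overlap.

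Pdzd7, on chromosome 19 from 45026906 to 45045717, had 11.3, 9.58 and 7.83 CPM in control and 7.38, 6.24 and 5.66 CPM after neomycin. The highest neomycin value and the lowest control value were close to each other. Its log2 fold change was -0.58 (SE 0.16, 95% interval -0.92 to -0.23, edgeR adjusted p = 0.0176), a fold change of 1.49. Where Pdzd7 stood to both cut-offs depended on single samples. Without control replicate 1 its log2 fold change was -0.43 (edgeR adjusted p = 0.0755), and leaving out control replicate 2, neomycin replicate 2 or neomycin replicate 3 gave adjusted p-values of 0.0590, 0.0691 and 0.0666 (edgeR). Without control replicate 3 or without neomycin replicate 1 it passed both thresholds, with -0.69 each (edgeR adjusted p = 0.00611 and 0.0110), and with a correction for exon length it did so at -0.59. Its 3′ end shares 206 exon bases with Lzts2, which runs on the opposite strand from 45014414 to 45027111 and stood at 137 ± 5.26 CPM in control and 163 ± 13.3 CPM after neomycin. Since the strand setting of the counting is not given in the sources used here, reads from that stretch may belong to either gene, and their part in the level of Pdzd7 was not tested.

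Harmonin and SANS, which bind each other and myosin VIIa, also differed. Ush1g, on chromosome 11 from 115315192 to 115322041, was the gene with the fewest reads, 117, 92 and 113 counts in control and 45, 73 and 45 counts after neomycin. All 3 neomycin counts were below the lowest control count. These are 1.82 ± 0.166 CPM in control and 0.974 ± 0.228 CPM after neomycin (SD, n = 3), and the log2 fold change was -0.90 (SE 0.28, 95% interval -1.52 to -0.28, edgeR adjusted p = 0.0331). The call for Ush1g was lost without control replicate 1, 2 or 3, with adjusted p-values of 0.0622, 0.0837 and 0.0778, and without neomycin replicate 1 or 3, with 0.0797 and 0.101 (edgeR), while its log2 fold change stayed between -1.11 and -0.80. Otop2 spans Ush1g on the opposite strand but shares no exon base with it and had at most 7 counts in any sample.

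Ush1c, on chromosome 7 from 46195350 to 46238503, had 7499, 5811 and 7024 counts in control and 7289, 7697 and 6553 counts after neomycin. After scaling these were 109, 111 and 125 CPM in control and 137, 130 and 122 CPM after neomycin, and the groups overlapped. The log2 fold change of 0.18 (SE 0.08, edgeR adjusted p = 0.110) did not pass the test, and its 95% interval, from 0.0060 to 0.35, lies wholly above the intervals of the other 6 genes. Without control replicate 3 the adjusted p of Ush1c was 0.0238 at a log2 fold change of 0.25, and without any other sample it was between 0.109 and 0.281. No other gene counted here overlaps Ush1c, but Gm9860, which is not in the count table, shares 120 exon bases with it on the opposite strand. Since the strand setting is not given, reads of Gm9860 from that stretch may have been counted for Ush1c, which was not tested. The counts are per symbol, so the isoforms of harmonin, whirlin and PDZD7 were not separated.

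Levels of different genes were compared per length, as CPM per kb of merged exon. In control explants Ush1c was highest, at 29.9 ± 2.27 CPM per kb (SD, n = 3). Myo7a at 3.17 ± 0.567, Clrn1 at 3.16 ± 0.475, Whrn at 2.71 ± 0.114 and Pdzd7 at 2.36 ± 0.427 CPM per kb followed, and each of these 4 overlapped its neighbour in the order over the 3 samples. Ush1g at 0.551 ± 0.0501 and Adgrv1 at 0.324 ± 0.0344 CPM per kb were lower and apart from each other. After neomycin the order was Ush1c at 33.7 ± 1.98 CPM per kb, Whrn at 1.91 ± 0.132, Pdzd7 at 1.58 ± 0.216, Myo7a at 1.44 ± 0.140, Clrn1 at 0.807 ± 0.290, Ush1g at 0.295 ± 0.0689 and Adgrv1 at 0.0997 ± 0.0166. There Whrn overlapped Pdzd7, Pdzd7 overlapped Myo7a, and the other neighbours were apart. Myo7a and Clrn1 thus ranked above Whrn and Pdzd7 by mean level in control and below them after neomycin.

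**Figure D2:**
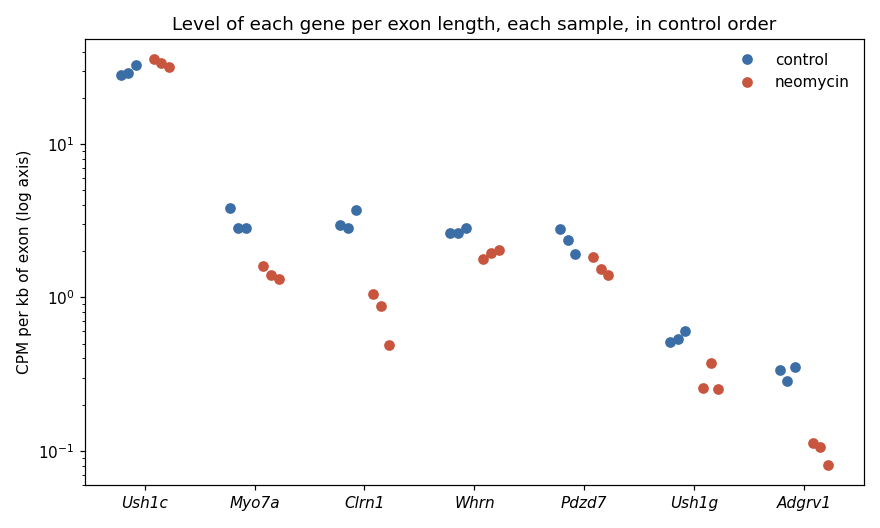
Level of each gene in each sample as CPM per kb of merged exon, on a log axis, with the genes in the order of their control means. Blue points are control and red points neomycin samples (n = 3 each); Ush1c averages 29.9 in control and 33.7 after neomycin, while Adgrv1 is lowest, at 0.324 in control and 0.0997 after neomycin on average.

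Because Ush1c held so much of the signal, the summed level of the 7 genes was similar in the groups, at 42.1 ± 2.29 CPM per kb in control and 39.9 ± 2.51 after neomycin, with overlapping samples. Without Ush1c the sum of the other 6 was 13.0, 11.5 and 12.3 CPM per kb in control and 6.60, 6.25 and 5.56 after neomycin. The share of Ush1c in the summed level was 70.9% ± 2.18 in control and 84.6% ± 0.391 after neomycin (SD, n = 3). The share of Clrn1 was 7.46% ± 0.701 in control and 2.00% ± 0.616 after neomycin, and that of Myo7a 7.55% ± 1.52 and 3.61% ± 0.145. These shares are linked to each other, since they add up within a sample.

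The sequences upstream of the genes were read from RefSeq for GRCm38.p6, the same build as mm10, from 250 bases before to 50 bases after each annotated start. Of the 7 genes, 6 had a window, and Myo7a had 2. Shown are the windows of the genes with the largest falls, Clrn1 and Adgrv1, of the HC label Myo7a (its upstream start) and of Ush1c, the gene that was not lower. All lie on the minus strand and are written 5′ to 3′ in the direction of the gene. Capitals mark matches, on either strand, to any of 5 short motifs: CAGCTG and CAGATG, forms of the E-box that ATOH1 binds, ATTAAT, a core of sites for POU4 factors, GTTGCC, part of the site of RFX factors, and GGAATG, the site of TEAD, the DNA-binding partner of YAP.
Clrn1 (chr3:58885163-58885462): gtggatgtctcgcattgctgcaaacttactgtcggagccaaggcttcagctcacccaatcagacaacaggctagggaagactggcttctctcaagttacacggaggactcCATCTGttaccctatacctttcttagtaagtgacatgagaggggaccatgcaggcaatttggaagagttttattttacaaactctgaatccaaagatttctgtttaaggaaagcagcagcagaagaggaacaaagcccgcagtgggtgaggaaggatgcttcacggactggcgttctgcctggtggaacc
Adgrv1 (chr13:81633095-81633394): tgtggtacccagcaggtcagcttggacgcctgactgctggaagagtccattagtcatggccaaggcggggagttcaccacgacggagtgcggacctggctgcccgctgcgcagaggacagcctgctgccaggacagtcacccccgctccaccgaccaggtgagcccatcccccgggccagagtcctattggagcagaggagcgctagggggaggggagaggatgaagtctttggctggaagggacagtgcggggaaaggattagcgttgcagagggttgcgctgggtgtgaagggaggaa
Myo7a (chr7:98119444-98119743): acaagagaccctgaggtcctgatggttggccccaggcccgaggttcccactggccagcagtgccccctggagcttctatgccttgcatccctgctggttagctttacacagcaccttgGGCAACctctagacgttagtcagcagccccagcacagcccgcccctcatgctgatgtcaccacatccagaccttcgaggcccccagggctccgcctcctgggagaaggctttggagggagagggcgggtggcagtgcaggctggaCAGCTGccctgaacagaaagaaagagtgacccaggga
Ush1c (chr7:46238441-46238740): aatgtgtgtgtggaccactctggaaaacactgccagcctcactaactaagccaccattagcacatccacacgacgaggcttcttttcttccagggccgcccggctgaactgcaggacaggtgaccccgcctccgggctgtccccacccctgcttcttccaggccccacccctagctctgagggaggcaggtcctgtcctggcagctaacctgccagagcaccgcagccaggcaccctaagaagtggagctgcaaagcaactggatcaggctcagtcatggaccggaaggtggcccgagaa

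The Clrn1 window holds CAGATG on its opposite strand 140 bases before the start, a motif present in 17.2% of 32851 windows of this length genome-wide. The Myo7a window holds CAGCTG 14 bases after the start and GTTGCC, on the opposite strand, 132 bases before it, and the downstream window of Myo7a holds CAGCTG as well. CAGCTG was also in the Pdzd7 window and GTTGCC in the Whrn window, so that 3 of the 7 windows had CAGCTG, against 16.3% of all windows, and 2 had GTTGCC, against 12.5%. None of the 7 windows held ATTAAT or GGAATG, which 4.75% and 14.7% of all windows have, and none of the motif matches overlapped another. The windows of Adgrv1 and Ush1c held no match to any of the 5 motifs. GC content ran from 48.7% in the Clrn1 window to 70.0% in the Whrn window, against a median of 52.7% over all windows. A match is a description of these letters, and no binding was measured.

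To compare the genes with each other without library scaling, the log2 ratio of each gene's counts to those of Myo7a was taken within each library. Relative to Myo7a, Clrn1 and Adgrv1 were lower after neomycin and Whrn, Pdzd7 and Ush1c higher, and for these 5 genes the groups did not overlap. Since Myo7a itself was lower, the same was so for 88.3% of the other 15987 genes tested, with 87.2% higher relative to Myo7a and 1.06% lower, and the median gene was higher by 1.12. The separation of Whrn, Pdzd7 and Ush1c is therefore near what genes in general showed, while that of Clrn1 and Adgrv1 was in the direction of the 1.06%. The ratio of Clrn1 was -1.53, -1.16 and -0.78 in control and -1.74, -1.83 and -2.58 after neomycin, a difference of -0.90. That of Adgrv1 was -1.96, -1.77 and -1.49 in control and -2.29, -2.18 and -2.49 after neomycin, a difference of -0.58. The lowest control values of both genes were those of replicate 1, where Myo7a itself was high. The ratio of Whrn was -0.76, -0.33 and -0.23 in control and -0.073, 0.25 and 0.39 after neomycin, a difference of 0.63. Pdzd7 had -1.54, -1.34 and -1.64 in control and -0.89, -0.95 and -0.996 after neomycin, a difference of 0.56. For Ush1c the difference was 1.31, with group means of 2.09 ± 0.325 and 3.40 ± 0.0604 (SD, n = 3). Ush1g kept within the spread of its ratio, with a difference of 0.21 and overlapping groups. An exact two-sided permutation test gave p = 0.1 for each of the 5 genes, the smallest p that 3 samples against 3 allow, and p = 0.5 for Ush1g, or 0.12 and 0.5 with Benjamini-Hochberg adjustment over the 6 ratios. This test therefore cannot bring these differences under 0.05 with 3 samples in each group.

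**Figure D3:**
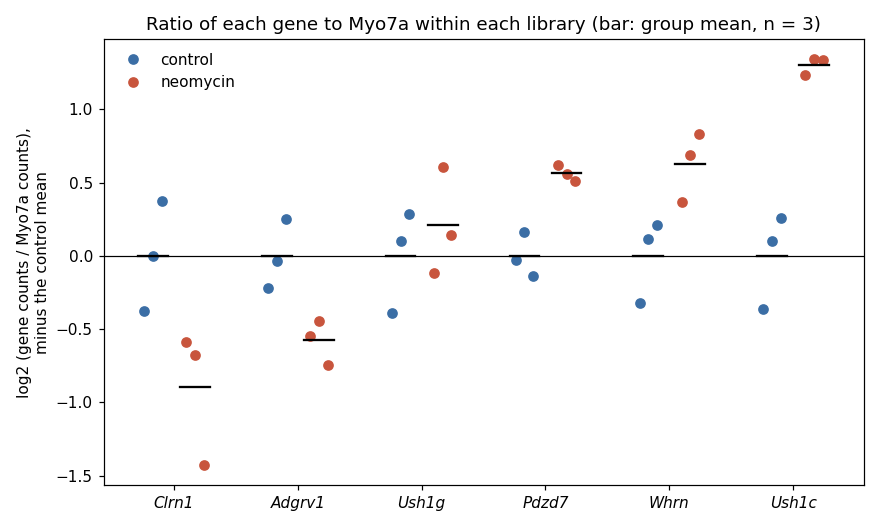
Log2 ratio of each gene's counts to the Myo7a counts of the same library, minus the mean of the control samples, with the genes ordered by the difference between the groups. Blue points are control, red points neomycin samples and bars the group means (n = 3); only Ush1g among the 6 genes shows overlapping groups, and the mean difference runs from -0.90 for Clrn1 to 1.31 for Ush1c, beside a median of 1.12 over all other genes tested.

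Other genes of Usher syndrome and of the ankle links were set beside the 7. Of 7 such genes analysed here, all tested, 2 were called lower, 0 higher, and the median log2 fold change was 0.0014, the value of Pcdh15, against -0.0041 over all genes tested and -0.90 over the 7 genes. Cdh23, a cadherin of the tip link, fell by 0.82 on the log2 scale (SE 0.14, edgeR adjusted p = 0.00123) and Cib2, a calcium-binding partner of the transduction channel, fell by 0.86 (SE 0.09, edgeR adjusted p = 5.90e-05). Pcdh15, the other cadherin of the tip link, had 15.7, 12.0 and 14.1 CPM in control and 15.7, 13.8 and 12.4 CPM after neomycin. These values overlapped fully, with a log2 fold change of 0.0014 (95% interval -0.27 to 0.27, edgeR adjusted p = 0.995). Arsg, Cep250 and Hars, linked to rarer forms of the syndrome, did not pass, with log2 fold changes of 0.27, -0.19 and 0.07. Vezt, which encodes the ankle link protein vezatin and is used at cell junctions in many tissues, had a log2 fold change of 0.19 (edgeR adjusted p = 0.0629). Within the tip link, Cdh23 was thus called lower and Pcdh15 was unchanged. Within the ankle link, Adgrv1 was called lower, and Whrn, Pdzd7 and Vezt were not. Whrn and Pdzd7 were lower without the fold change threshold.

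**Figure D4:**
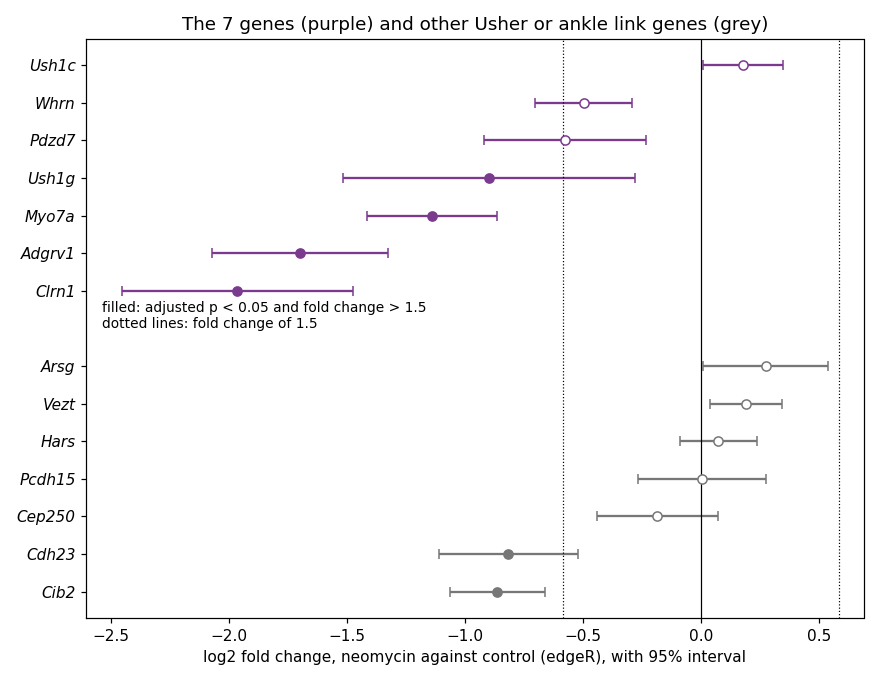
Log2 fold change of neomycin against control with its 95% interval (edgeR) for the 7 genes (purple) and the 7 other Usher or ankle link genes (grey). Filled points were called at both cut-offs, the dotted lines mark the fold change of 1.5, and Ush1c is the only purple point to the right of 0.

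Genes for other parts of the bundle were also counted. All 4 genes of the mechanotransduction channel were called lower, with a median log2 fold change of -1.70. Tmc1, a pore subunit of the channel, fell by 3.16 (SE 0.19) and Lhfpl5 by 1.77 (SE 0.13), both on the log2 scale. Of 14 genes of the stereocilia tip and taper, Myo15a was not found by that symbol in the count table. Of the other 13, 6 were called lower and 0 higher, with a median of -0.36. They ranged from Myo3a at -3.34 and Strc, the gene of stereocilin, at -3.11 to Tprn, the taper protein taperin, at 0.07 (edgeR adjusted p = 0.559) and Gnai3 at 0.05 (edgeR adjusted p = 0.642), which did not pass. Paralogues of the Usher genes and genes of the related complex that joins microvilli in the gut were mostly at low levels. Of 9 such genes 1 of the 3 tested was called lower and 0 higher, with a median of -1.37. That gene, Ushbp1, whose protein binds harmonin, fell by 1.63 on the log2 scale (SE 0.36), while Cib1, a relative of Cib2 used in many tissues, was higher by 0.26 (edgeR adjusted p = 0.0252) and below the fold change cut-off. Clrn2, a relative of Clrn1, had at most 22 counts in a sample and did not pass (edgeR adjusted p = 0.174). The median of -1.37 over the 3 tested is the value of Clrn2. The other 6 had too few counts to be tested, among them Myo7b, the myosin of the gut complex, with at most 19 counts in a sample, and its SANS-like partner Anks4b with at most 7.

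The change in the 7 genes was read against 19 HC markers, genes such as Pou4f3, Slc26a5 and Otof. Of these, 16 were called lower and 0 higher, with a median log2 fold change of -1.71 and a range from -3.99 for Slc26a5 to -0.05 for Atoh1. The log2 fold change of Clrn1 was below that of 11 of the 19 markers and that of Adgrv1 below 9. Myo7a fell further than 7 of the markers and Ush1g further than 6, Whrn and Pdzd7 were below 3 each, and Ush1c was above all 19. Taken as a ratio to the median of the markers within each library, Clrn1 had -1.07, -0.94 and -0.71 in control and -0.69, -0.64 and -0.90 after neomycin, so that the groups overlapped. The ratios of the other 6 genes were all higher after neomycin and did not overlap, by 0.48 for Adgrv1, 1.06 for Myo7a, 1.27 for Ush1g, 1.62 for Pdzd7, 1.69 for Whrn and 2.37 for Ush1c. This too was the common case, since 96.1% of all genes tested were higher without overlap by this ratio, with a median difference of 2.19 over all genes tested. By this ratio Clrn1 and Adgrv1, which were lower relative to Myo7a, were not lower, with differences of 0.16 and 0.48. The reference here is the median of the marker levels in each library, and different markers can hold it. It was Pou4f3 in control replicate 1 and Slc17a8 in neomycin replicate 1, so the ratio need not follow the fold changes. By fold change Clrn1 at -1.97 was below the marker median of -1.71, and Adgrv1 at -1.70 was close to it.

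Markers of other cells of the explant also differed between the groups. Of 18 supporting cell markers 2 were called lower (Prox1 and Fgfr3) and 0 higher, with a median log2 fold change of 0.11. At an adjusted p-value under 0.05 (edgeR) alone, 5 were lower and 3 higher. Their summed level was 9540 to 10339 CPM in control and 11178 to 12006 after neomycin. Most of that sum came from Epyc, with means of 5531 and 6385 CPM. Of 8 endothelial markers 6 were called lower, with a median of -2.10, and the summed level of all 8, most of it from Emcn, was 279 to 313 CPM in control and 266 to 317 CPM after neomycin. Of 12 neuron markers 4 were called lower, with a median of -0.72 and a summed level of 293 to 381 CPM in control and 281 to 311 after neomycin. A large part of that sum came from Isl1, which was higher after neomycin, with means of 130 and 158 CPM. For macrophages 4 of 10 markers were called higher (median 0.53, 94.1 to 124 and 135 to 168 CPM). For mesenchyme 1 of 10 was called higher and 1 lower (median -0.10, 6331 to 6958 and 6637 to 6860 CPM), and for Schwann cells and glia 0 of 9 were called, with 1 at an adjusted p-value under 0.05 (edgeR; median 0.07, 567 to 628 and 556 to 588 CPM). No marker of any of these lists was at 0 in any sample. Whether these cells carry part of the counts of the 7 genes was not tested.

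**Figure D5:**
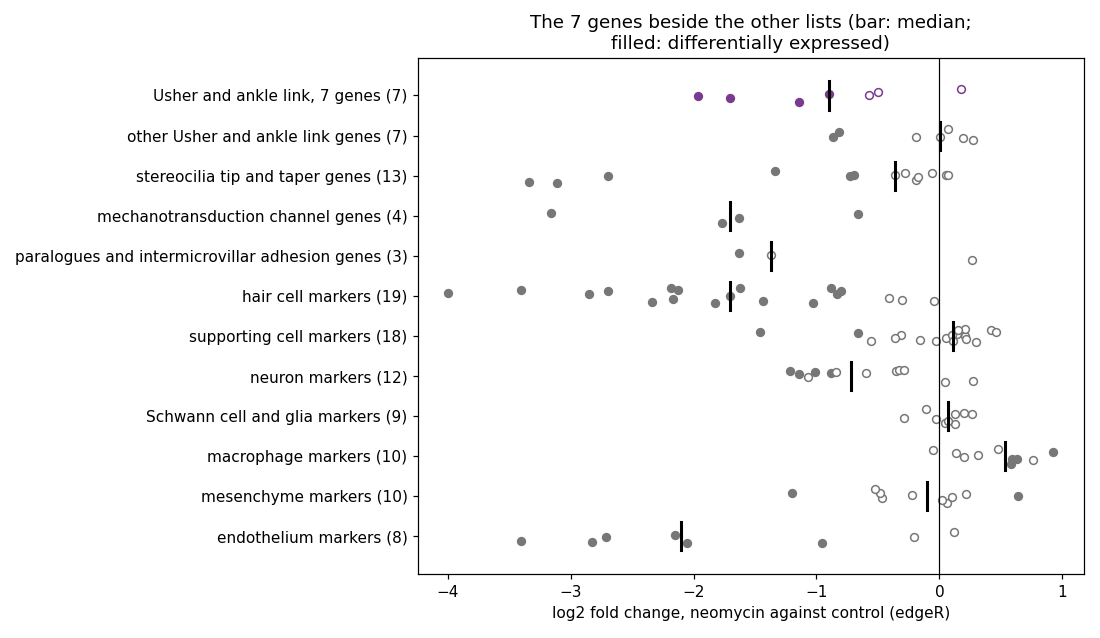
Log2 fold change of neomycin against control (edgeR) for every tested gene of each list, with the 7 genes in purple, the number tested in parentheses and the median as a bar. Filled points are differentially expressed; the 7 genes have a median of -0.90, between -1.71 for the HC markers and 0.11 for the supporting cell markers.

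For each of the 7 genes, the 2 genes most like it were sought among 14029 tested genes with a mean of at least 1 CPM, by the root mean square distance of the 6 log2 CPM values (prior count of 2), each taken relative to the control mean. Nearest to Clrn1 was Grxcr2, a protein of the stereocilia (distance 0.11, log2 fold change -1.96), and next Ap3b2, a subunit of a vesicle coat (distance 0.16, -2.09). Nearest to Adgrv1 were Lhfpl5, of the transduction channel (distance 0.12, -1.77), and Wee2 (distance 0.13, -1.75). Myo7a was closest to Masp1 and Cd93, the latter known from endothelium (distances 0.073 and 0.091, -1.17 and -1.26). Ush1g was closest to Depdc7 and Pgf (0.025 and 0.057), Whrn to Bmp2 and Serinc3 (0.045 and 0.060), Pdzd7 to Evi5l and Dlg5 (0.024 and 0.040) and Ush1c to Snx3 and B3gnt7 (0.026 and 0.028). With 6 samples in 2 groups such a distance mostly reflects the difference between the groups and is given as a description.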

How the data were processed

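RNA from pooled cochlear explants was sequenced in 6 samples. The authors called bases with Casava 1.8, trimmed reads with trimmomatic (version 0.23, per the labels and methods), aligned them to mm10 with Hisat2 and used HTSeq for counting. What the authors deposited are raw counts per gene symbol. Genes were filtered with filterByExpr and scaled by TMM in edgeR 4.0.16 (R 4.3.3). Neomycin was tested against control over all genes with the quasi-likelihood test and Benjamini-Hochberg adjustment. Standard errors were derived from the F statistic, as |log2 fold change| over its root. Exon lengths and positions came from GENCODE M21. Alternatives were DESeq2 1.42.0, limma-voom (3.58.1), other scalings, no filter, no fold change threshold, a replicate block, removal of each sample's trend on exon length (lowess, span 0.3), and each sample left out. The ratios used a pseudocount of 0.5, and their share over all genes was added after seeing the data.

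The members and lists were chosen with earlier results of these data known. The genes named are the 7, those of the gene lists and the 2 nearest genes of each. One further gene of the Usher and ankle link list is not reported here, and the counts and median of that list leave it out. Lzts2, Otop2 and Gm9860 were named after their overlaps were seen. The code was tested on simulated data. Intervals of counting error do not cover library preparation. Figures were drawn with matplotlib 3.10.9.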

Additional observations from a re-analysis of the deposited data

How the results depend on the processing

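Of the 7 genes, 4 passed both thresholds in the analysis reported, 6 without the fold change threshold, 5 with the length correction, which added Pdzd7, and 3 or 4 with a sample left out. The 3 came from leaving out control replicate 1, control replicate 2 or neomycin replicate 3, each of which ended the call for Ush1g. Without control replicate 3 or neomycin replicate 1, Ush1g was lost and Pdzd7 gained. Clrn1, Adgrv1 and Myo7a passed under all 14 alternatives, and no gene changed direction. Over all genes, 1037 to 1672 were called with a sample left out, against 1413 with all 6, and 4629 without the fold change threshold (2058 higher and 2571 lower). With the replicate block 1465 genes and 4 of the 7 were called. The deviations of same-numbered samples from their group means correlated at 0.165, 0.026 and 0.095 over genes for replicates 1, 2 and 3. Samples of different numbers correlated at -0.129 to 0.032, the highest being control replicate 2 with neomycin replicate 3. Whether the numbers pair the samples cannot be told from these values, and the analysis reported used no block. The ratio to Myo7a separated the groups for 5 of 6 genes with pseudocounts of 1 and 0.1. With a sample left out, or with same-numbered samples compared (replicate block), the number was also 5, but groups that do not overlap cannot come to overlap in those settings, so this says nothing of stability. With the median of the HC markers as reference the number was 5 as well, but the direction turned for Adgrv1, from -0.58 to 0.48, and Clrn1 went from -0.90 to 0.16 with overlapping groups. That reference is a median of levels, which different markers can hold in different samples. By fold change Adgrv1 at -1.70 was close to the marker median of -1.71, and Clrn1 at -1.97 was below it. Depth limits Ush1g most. Its lowest count after neomycin was 45, and at its mean count in that group the counting error was 13.6% of the mean. The count without the fold change threshold was followed over the alternatives by a choice made after seeing the data.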
